A study of Homo sapiens with 8 samples.

Results

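A set of 10 genes that carry tryptophan through its breakdown, or that act in and downstream of the aryl hydrocarbon receptor (AHR), was followed through interferon-gamma treatment of human cancer cell lines. They are IDO1, TDO2, KMO, KYNU and AADAT, which encode enzymes of the kynurenine pathway, WARS, which encodes the cytoplasmic tryptophanyl-tRNA synthetase, the receptor gene AHR, and TIPARP, CYP1A1 and CYP1B1, which are known AHR targets. They were taken by gene symbol from the deposited count table, where they are 10 of 24462 symbols and each has 1 row. RNA sequencing gave transcript counts for 8 libraries from 4 lines, 549 and H1703 (both labelled as lung cancer), A375 (skin) and A498 (kidney). Each line was cultured untreated or with recombinant human IFN-gamma, a cytokine of T and NK cells, at 20 ng/ml for 72 hours. Both arms grew in the same serum-containing RPMI medium, and no genetic change was named for either arm. Each line gave 1 untreated and 1 treated library, so there was no replicate within a line, and the 4 lines served as the replicates of the treatment. A change in counts cannot be assigned to more cells expressing a gene or to more RNA per cell, since the libraries are bulk RNA.

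Tryptophan is opened at its ring by IDO1 or TDO2, and the product becomes kynurenine. Kynurenine is hydroxylated by KMO, cleaved by KYNU or turned into kynurenic acid by AADAT, and the KMO and KYNU branch leads on to NAD. IFN-gamma is a classical inducer of IDO1 and WARS, acting through DNA elements that include GAS and the ISRE, the second bound by factors of the IRF family. Kynurenine and kynurenic acid are ligands of AHR, which on activation pairs with ARNT and binds the xenobiotic response element (XRE) of its targets. CYP1A1 and CYP1B1 are monooxygenases that clear AHR ligands, and TIPARP is an ADP-ribosyltransferase that represses AHR.

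Promoter windows are shown for the members in which GAS, ISRE or XRE letters occurred, because these are the elements through which the treatment and the receptor are known to act. Windows of 8 of the 10 genes were used from the RefSeq promoter table of build GRCh38.p14, 13 in all, and no window of IDO1 or CYP1B1 was among them. Each sequence is the 250 bases before an annotated start, 5′ to 3′ on the strand of the gene, with matches in capitals. WARS, listed as WARS1, has 2 starts, on the minus strand at chr14:100376328-100376577 (start 1) and chr14:100375348-100375597 (start 2). The KYNU window is chr2:142877414-142877663 on the plus strand, the window of the first of the TIPARP starts is chr3:156674340-156674589 on the plus strand, and the CYP1A1 window is chr15:74725529-74725778 on the minus strand.
WARS start 1: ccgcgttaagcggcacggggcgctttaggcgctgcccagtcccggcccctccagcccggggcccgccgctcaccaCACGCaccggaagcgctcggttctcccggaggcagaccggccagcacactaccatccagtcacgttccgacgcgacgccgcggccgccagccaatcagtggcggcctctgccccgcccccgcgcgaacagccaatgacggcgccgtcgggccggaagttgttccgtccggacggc
WARS start 2: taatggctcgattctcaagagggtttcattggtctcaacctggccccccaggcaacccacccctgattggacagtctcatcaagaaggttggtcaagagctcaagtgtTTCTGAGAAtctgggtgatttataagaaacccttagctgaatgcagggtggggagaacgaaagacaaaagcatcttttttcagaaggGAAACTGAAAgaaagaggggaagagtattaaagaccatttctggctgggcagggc
KYNU: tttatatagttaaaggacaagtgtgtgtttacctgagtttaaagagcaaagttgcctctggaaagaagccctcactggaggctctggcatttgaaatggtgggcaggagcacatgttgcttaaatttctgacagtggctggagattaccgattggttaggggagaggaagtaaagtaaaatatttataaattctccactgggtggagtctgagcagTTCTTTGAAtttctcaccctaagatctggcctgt
TIPARP start 1: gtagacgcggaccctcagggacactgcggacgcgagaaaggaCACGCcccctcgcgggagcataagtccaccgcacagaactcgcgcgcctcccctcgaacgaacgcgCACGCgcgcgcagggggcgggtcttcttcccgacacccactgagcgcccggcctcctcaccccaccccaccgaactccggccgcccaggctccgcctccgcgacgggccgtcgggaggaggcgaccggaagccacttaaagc
CYP1A1: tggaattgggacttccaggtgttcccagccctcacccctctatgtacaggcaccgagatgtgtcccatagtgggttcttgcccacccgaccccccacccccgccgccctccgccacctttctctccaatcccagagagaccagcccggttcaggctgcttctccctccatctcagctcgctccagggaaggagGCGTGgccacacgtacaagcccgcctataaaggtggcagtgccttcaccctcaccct
The letters searched were TTCNNNGAA for GAS, which is its own reverse complement, GAAANNGAAA for ISRE (TTTCNNTTTC on the other strand) and GCGTG for the XRE core (CACGC on the other strand). No match overlapped another in these windows. WARS start 2 held a GAS match 142 to 134 bases before the start and an ISRE match 55 to 46 bases before it, and start 1 held 1 XRE core. KYNU held a GAS match 34 to 26 bases before its start. The XRE core occurred in TIPARP start 1 at 208 to 204 and at 142 to 138 bases before the start, and in CYP1A1 at 57 to 53. The other 8 windows, of TDO2, KMO, AADAT, AHR and the other TIPARP starts, held none of these letters. Among all 35116 windows of this length, 6.57% held the GAS letters, 3.02% the ISRE letters, 0.310% both, and 32.2% the XRE core. A match describes letters and is not a measured binding site, and the counts do not separate transcripts from the WARS starts.

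**Figure D1:**
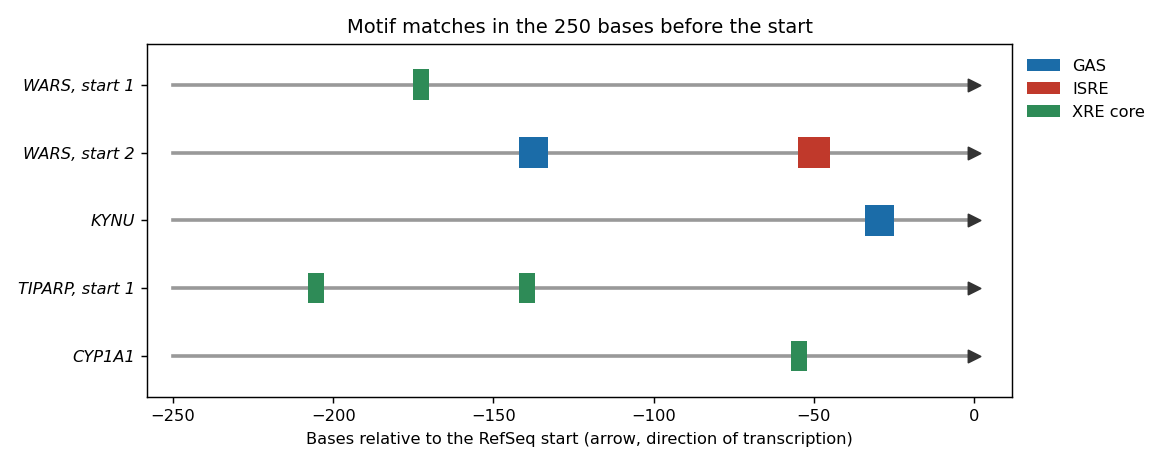
Positions of GAS, ISRE and XRE core matches in the 5 promoter windows with a match, in bases relative to the RefSeq start (arrow). GAS and ISRE stand together only in WARS start 2, and the XRE core stands once in CYP1A1 and in 2 places in TIPARP start 1.

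The first comparison asked how the treatment changed each gene across the lines. IDO1 and WARS rose in all 4 lines, and their treated and untreated libraries did not overlap (1.78% of all 13457 genes tested lay fully above and 1.1% fully below). KYNU and CYP1B1 were higher with IFN-gamma in 4 of 4 lines and KMO was lower in 4 of 4, but none of the 3 passed the test over the lines. Of all genes tested, 15% were above 0 and 15.2% below 0 in all 4 lines. The intervals of KYNU in 549 and of KMO in H1703 included 1, so the direction there was within counting error. AHR and TIPARP were higher in A375 and A498 and close to 1-fold or below in the lung lines, AADAT was within counting error in every line, and TDO2 and CYP1A1 were each above a few counts in 1 line only. In edgeR's quasi-likelihood test with cell line as a term, 2 of the 8 members tested passed a Benjamini-Hochberg adjusted p of 0.05, both higher, where 1.92% of all genes tested passed (1.59% higher and 0.327% lower). IDO1 passed the filter on low counts only through its treated libraries, so it could enter the test only by being higher with treatment, and the count of 2 is a description. TDO2 and CYP1A1 did not pass that filter and were not tested. With no filter, DESeq2 or edgeR's likelihood ratio test, KYNU, KMO and CYP1B1 passed as well, 5 members in each, where 4.2%, 7.7% and 9.8% of all genes did. Without 549, A375, A498 or H1703 in turn, 2 members passed each time, and 1.13%, 1.55%, 0.797% and 3.39% of all genes. IDO1 entered those fits by the same route, so the repeated 2 is a description too.

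**Figure D2:**
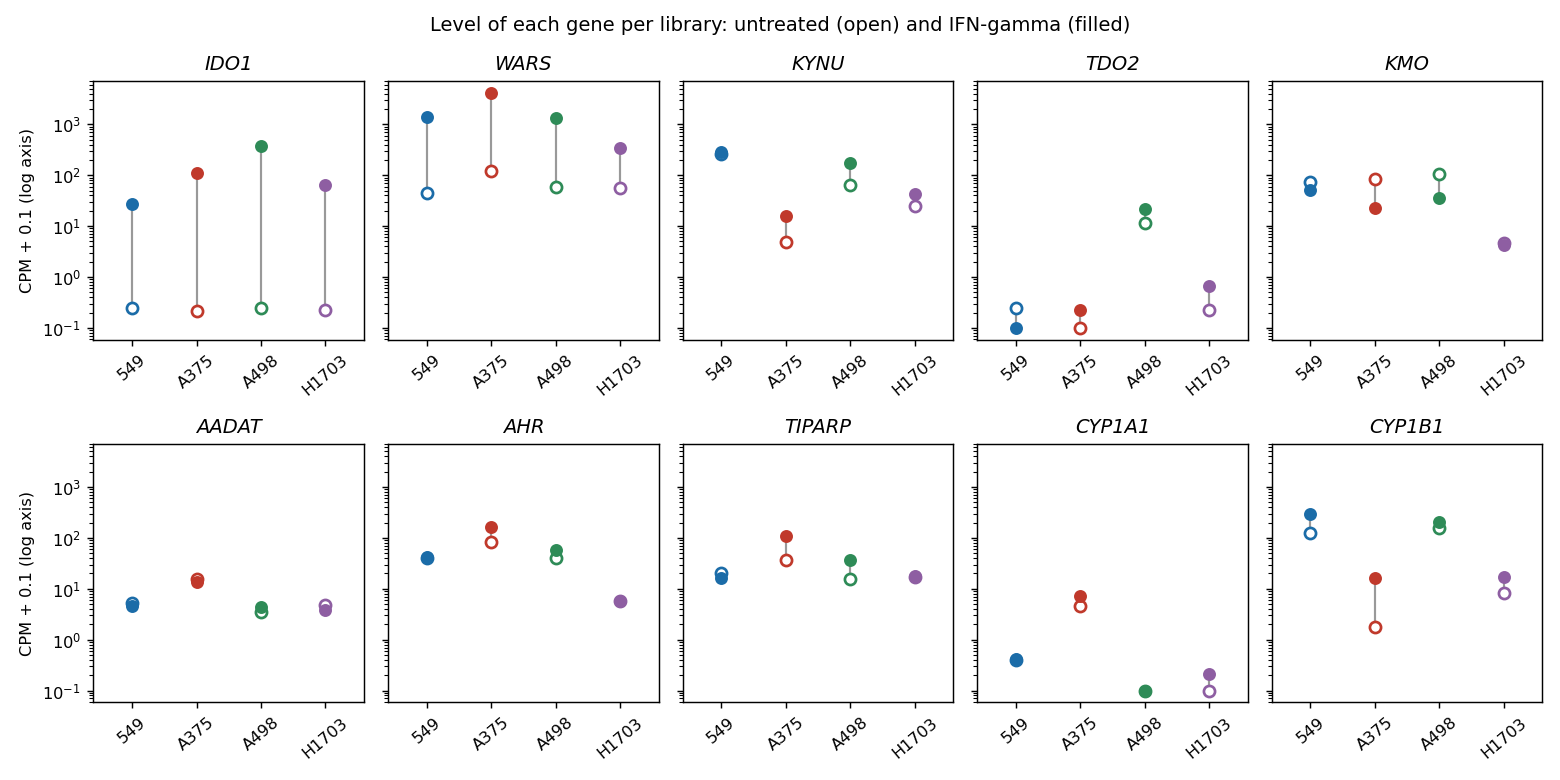
Level of each gene in each library, as CPM (counts scaled to library size with the TMM factor) plus 0.1 on a log axis. Untreated (open) and IFN-gamma (filled) libraries of each line are joined within a line. Filled and open points separate fully for IDO1 and WARS and overlap for the other 8 genes.

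Among the ring-opening enzymes, IDO1 had 1 count in each of the 4 untreated libraries, which is near the limit of detection at this depth. With IFN-gamma it had 171 counts in 549, 577 in H1703, 900 in A375 and 2843 in A498, or 27.0, 64.4, 112 and 377 CPM. The treated level therefore differed 13.97-fold between A498 at the top and 549 at the bottom, with A375 above H1703 in between. Over an untreated value of 1 count the ratio in each line is loosely bounded, at 186-fold in 549 (exact 95% interval 33.0 to 7400) and 2559-fold in A498 (459 to 101100). The intervals here and below cover counting error only. The log2 ratios of the 4 lines, with a prior count of 2, had an SD of 1.59. The fitted log2 fold change was 9.79 ± 0.40 (SE of the fit). Its size depends on the prior count because the untreated libraries are near 0, and no p is given since the gene entered the test only through its treated libraries.

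TDO2, the ring-opening enzyme best known from liver, was present in A498 alone beyond a few counts. A498 had 78 untreated and 164 treated counts, 11.5 and 21.8 CPM, a ratio of 1.89 (1.44 to 2.51). The other 6 libraries had 0 to 5 counts, the highest in treated H1703. Of the hepatocyte markers, ALB, APOA1, TTR and SERPINA1, the summed level in A498 was 1.62 CPM untreated and 0.929 CPM treated. IDO2, a paralog of IDO1, had 0 counts in 7 libraries and 3 in treated H1703.

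WARS joins tryptophan to its tRNA and so uses the same amino acid without breaking it down. It had 309 counts in untreated 549, 1100 in A375, 402 in A498 and 428 in H1703. With IFN-gamma it had 8768, 33472, 10141 and 3021 counts in the same order of lines. In CPM the treated levels were 337 in H1703, 1346 in A498, 1385 in 549 and 4173 in A375, all above the highest untreated level of 121 in A375. Untreated A375 stood 2.04-fold above the next line, and treated A375 3.01-fold above it, while treated 549 and A498 lay side by side. The ratio was 30.9 in 549 (27.6 to 34.7), 34.6 in A375 (32.5 to 36.7), 22.7 in A498 (20.6 to 25.2) and 6.12 in H1703 (5.53 to 6.79). H1703 thus gave the smallest rise, with an interval below those of the other lines. The fitted log2 fold change was 4.33 ± 0.43 (SE of the fit, edgeR quasi-likelihood adjusted p = 0.00128), and 4.85 without H1703. The log2 ratios of the 4 lines had an SD of 1.15. IRF1, a transcription factor that transmits the IFN-gamma signal, rose 17.8-fold in H1703 (16.3 to 19.5), the lowest of its 4 ratios, which reached 48.3 in A375. That interval overlapped those of A498 (17.04 to 21.0) and 549 (18.09 to 23.78). In both arms H1703 had the highest IRF1 level of the lines, at 66.3 CPM untreated and 1181 CPM treated.

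**Figure D3:**
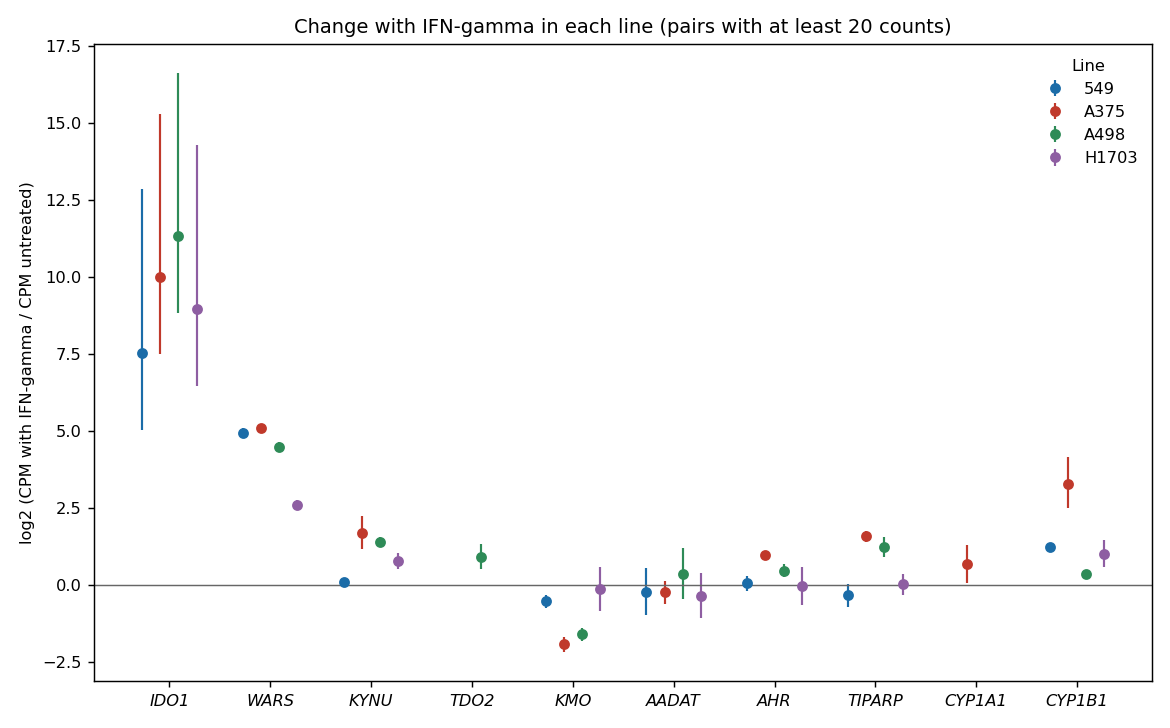
Change with IFN-gamma in each line, as the log2 ratio of treated to untreated CPM, with exact 95% intervals of the count ratio (counting error only) and with pairs under 20 counts left out. IDO1 and WARS lie above 0 in all 4 lines, and the TIPARP and AHR points of A375 and A498 lie above those of the lung lines.

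KYNU cleaves kynurenine and 3-hydroxykynurenine, and its untreated level differed 56.2-fold between lines. It had 1829 counts in untreated 549, 43 in A375, 443 in A498 and 196 in H1703, and 1793, 123, 1314 and 390 with IFN-gamma. The line with the highest level, 549, was nearly level at 265 and 283 CPM, a ratio of 1.07 (1.00 to 1.14). The other lines were above their untreated libraries beyond counting error, with ratios of 3.25 in A375 (2.28 to 4.71), 2.67 in A498 (2.40 to 2.98) and 1.73 in H1703 (1.45 to 2.06). The order of the lines was the same in both arms, and the span narrowed to 18.5-fold with treatment. Over the lines the fitted log2 fold change of 0.96 ± 0.27 (SE) did not pass (edgeR quasi-likelihood adjusted p = 0.103, unadjusted p = 0.00585).

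KMO, the flavin monooxygenase that hydroxylates kynurenine, was the only member tested with a log2 fold change below -1. It had 508 counts in untreated 549, 763 in A375, 719 in A498 and 35 in H1703, and 325, 178, 267 and 37 with IFN-gamma. H1703 stood far below the other lines in both arms, at 4.51 and 4.13 CPM, and the untreated levels of the other 3 lines lay between 73.7 and 106 CPM. The ratio was 0.697 in 549 (0.604 to 0.803), 0.265 in A375 (0.224 to 0.312), 0.334 in A498 (0.289 to 0.385) and 0.917 in H1703 (0.562 to 1.499). The interval was below 1 in 549, A375 and A498 and included 1 in H1703. The fitted log2 fold change of -1.11 ± 0.30 (SE) missed the threshold (edgeR quasi-likelihood adjusted p = 0.0999, unadjusted p = 0.00535). Below 0 in all 4 lines were 15.2% of all genes tested.

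KMO shares 1691 of its 5946 annotated exon bases, 28.4%, with the 3′ end of OPN3, an opsin gene on the opposite strand. In the order 549, A375, A498 and H1703, OPN3 had 520, 839, 615 and 67 counts untreated, and 343, 227, 211 and 57 with IFN-gamma. Its ratios of 0.719 (0.625 to 0.825), 0.307 (0.264 to 0.356), 0.309 (0.263 to 0.362) and 0.738 (0.509 to 1.07) had intervals that overlapped those of KMO in every line. Its fitted log2 fold change was -1.11 ± 0.27 (SE, edgeR quasi-likelihood adjusted p = 0.0821). The use of strand in counting is not given in the sources used here, so reads of KMO and OPN3 cannot be told apart where they overlap, and the KMO values may hold OPN3 reads or the reverse. WARS has a smaller overlap, 287 of 6358 exon bases (4.51%), at its 5′ end with WDR25, which had 26 to 51 counts untreated and 73 to 208 treated, and a log2 fold change of 1.62 ± 0.29 (SE, edgeR quasi-likelihood adjusted p = 0.0318). The treated WARS counts were 3021 to 33472. AHR shares 2373 of 8081 exon bases (29.4%) with AC019117.2, annotated as protein-coding on the same strand, which has no row in the table, so reads of the shared part cannot be assigned to either. CYP1B1 shares 678 of 6014 exon bases (11.3%) with CYP1B1-AS1, which had 0 to 5 counts. The other members share at most 3.68% of their exon bases with any annotated gene, while WARS also shares 6.06% with AL157871.4, an antisense gene with no row in the table.

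**Figure D4:**
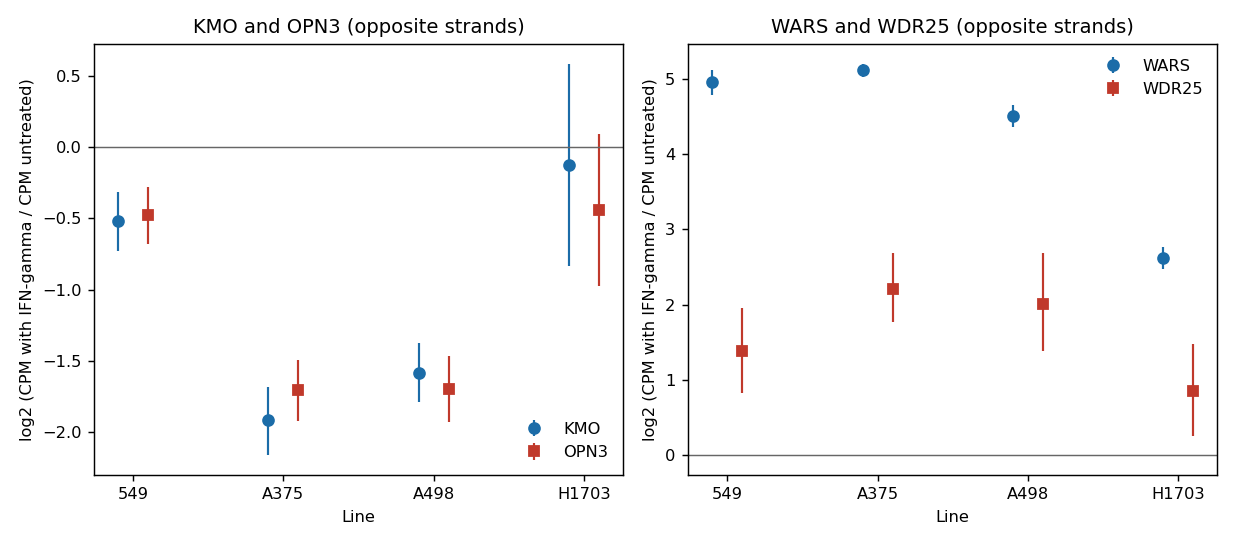
Log2 ratio of treated to untreated CPM in each line for KMO and OPN3 (left) and for WARS and WDR25 (right), which overlap on opposite strands, with exact 95% intervals (counting error only). KMO and OPN3 lie close together in each line, and WARS lies above WDR25 in all 4 lines.

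AADAT, the aminotransferase that makes kynurenic acid, was low and had the smallest fitted change of the 8 members tested. It had 35 counts in untreated 549, 142 in A375, 23 in A498 and 36 in H1703, and 28, 107, 33 and 33 with IFN-gamma. A375 was highest in both arms, at 15.6 and 13.3 CPM, and the other lines lay between 3.39 and 5.07 CPM. The ratio was 0.795 in H1703, 0.856 in A375, 0.871 in 549 and 1.29 in A498, and the interval included 1 in all 4. The fitted log2 fold change was -0.11 ± 0.27 (SE, edgeR quasi-likelihood adjusted p = 0.841).

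AHR itself differed 14.8-fold between untreated lines. It had 279 counts in untreated 549, 761 in A375, 278 in A498 and 44 in H1703, and 269, 1335, 431 and 50 with IFN-gamma. Untreated 549 and A498 were alike, at 40.5 and 41.0 CPM, A375 was above them at 83.6, and H1703 was lowest at 5.66. The ratio was 1.99 in A375 (1.82 to 2.18) and 1.40 in A498 (1.197 to 1.63), while the intervals of 549 (1.05, 0.885 to 1.25) and H1703 (0.985, 0.644 to 1.51) included 1. Over the lines the log2 fold change was 0.41 ± 0.21 (SE, edgeR quasi-likelihood adjusted p = 0.299), and it was 0.20 without A375.

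TIPARP was higher with treatment, beyond counting error, in the same 2 lines as AHR. It had 139 counts in untreated 549, 329 in A375, 105 in A498 and 134 in H1703, and 102, 874, 277 and 159 with IFN-gamma. The ratio was 3.02 in A375 (2.66 to 3.44) and 2.38 in A498 (1.89 to 3.002), against 0.799 in 549 (0.613 to 1.04) and 1.03 in H1703 (0.813 to 1.31). Treated A375 was the highest library at 109 CPM, and the untreated lines differed only 2.33-fold. The log2 fold change was 0.67 ± 0.33 (SE, edgeR quasi-likelihood adjusted p = 0.283), 0.32 without A375 and 0.99 without 549.

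CYP1B1 was strongly line-dependent, with untreated levels of 1.65 CPM in A375, 8.24 in H1703, 126 in 549 and 159.5 in A498. It had 866, 15, 1082 and 64 counts untreated and 1883, 129, 1541 and 151 with IFN-gamma, in the order 549, A375, A498 and H1703. All 4 ratios were above 1, at 2.37 in 549 (2.18 to 2.57), 9.77 in A375 (5.71 to 17.96), 1.28 in A498 (1.19 to 1.39) and 2.05 in H1703 (1.52 to 2.79). The line with the lowest untreated level gave the largest ratio and the line with the highest gave the smallest. The log2 fold change of 1.31 ± 0.38 (SE) did not pass (edgeR quasi-likelihood adjusted p = 0.111, unadjusted p = 0.0076), and it was 0.87 without A375. Above 0 in all 4 lines were 15% of all genes tested.

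CYP1A1, the best known AHR target, was near 0 outside A375. A375 had 41 untreated and 58 treated counts, 4.50 and 7.23 CPM, a ratio of 1.61 (1.06 to 2.46). The other 6 libraries had 0 to 2 counts, so a change there was not detectable at this depth. AHRR, the AHR repressor and itself an AHR target, chosen here from the listed targets after its values were seen, had 136 untreated and 357 treated counts in A375, a ratio of 2.98 (2.44 to 3.66), while the intervals of the other lines included 1. In A375 the intervals of AHR, TIPARP, CYP1A1 and CYP1B1 all lay above 1. The share of all genes with an interval above 1 in A375 was not counted, so this describes 1 pair of libraries. Of 11 listed AHR partners, the A375 interval lay above 1 for 4 and below 1 for 6. AHRR is 1 of these 4 and is counted again among the listed targets that follow. For the 17 other listed AHR targets, the A375 interval lay above 1 for 6 and below 1 for 1 (NEDD9, a scaffold protein, at 0.382, 0.290 to 0.498). It included 1 or had no counts behind it for 10. Of these 10, only NQO1 (0.984, 0.943 to 1.03) and ABCG2 (1.002, 0.656 to 1.53) were well counted in A375. The others had at most 7 counts in either A375 library, too few to be read as unchanged.

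The second comparison asked whether the response of a member differed between lines, by an interaction term, with 1 contrast of the lung lines with A375 and A498 and 4 contrasts of a single line with the remaining 3. Of all genes tested, 0% passed in any of the 5 contrasts (0 genes by edgeR's quasi-likelihood test, with 418 to 1153 genes under an unadjusted p of 0.05), and 0 members passed. DESeq2 called 7 genes (0.052%) for the lung lines, 9 (0.0669%) for 549, 71 (0.528%) for A375, 19 (0.141%) for A498 and 16 (0.119%) for H1703, and limma-voom called 0 genes in each. With no filter edgeR called 91 genes for A375 (0.432%) and 31 for A498 (0.147%), and with library size alone 2 for A375 (0.0149%), none of them a member. The lung minus other difference in log2 fold change was -1.57 ± 0.37 (SE) for TIPARP (unadjusted p = 0.00394, edgeR adjusted p = 0.969) and 1.38 ± 0.36 for KMO (unadjusted p = 0.00655). For A375 minus the other 3 lines it was 2.41 ± 0.55 for CYP1B1 (unadjusted p = 0.00177, edgeR adjusted p = 0.253), and for H1703 minus the other 3 lines it was -2.24 ± 0.44 for WARS (unadjusted p = 0.00118, edgeR adjusted p = 1). DESeq2 called these last differences, at adjusted p = 0.045 for CYP1B1 and 0.00423 for WARS. The differences between lines described above are therefore values of these libraries, and by edgeR's test they are not shown to differ.

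No other listed gene of the kynurenine branch that was tested passed. Of 12 other genes of the kynurenine and NAD branch, 8 were tested and 0 passed in either direction, where 1.92% of all genes tested did. At that share a count of 0 among so few genes is a description only. The median log2 fold change of the tested genes was -0.27 beside -0.015 over all genes tested. The smallest p-values were of CCBL1, a kynurenine aminotransferase (-1.05 ± 0.26 SE, edgeR quasi-likelihood adjusted p = 0.082), and QPRT, which makes the nicotinate precursor of NAD (-0.93 ± 0.27 SE, edgeR adjusted p = 0.110). HAAO, which acts between KYNU and QPRT, had 0 counts in all 8 libraries. Of 8 other tryptophan users only WARS2, the mitochondrial synthetase, was tested, at -0.21. Among the untested ones IL4I1, an oxidase of aromatic amino acids chosen here after its values were seen, had 136 untreated and 1592 treated counts in A498, a ratio of 10.5 (8.84 to 12.7), and 0 to 12 counts in the other libraries.

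No listed amino acid transporter that was tested passed, and the tested ones differed in direction. Of 9 listed transporters 5 were tested and 0 passed, where 1.92% of all genes tested did, so this count too is a description. The median log2 fold change of 1.03 is the value of SLC7A5. SLC3A2, the shared heavy chain of the large neutral amino acid exchangers, gave 1.07 ± 0.32 (SE, edgeR quasi-likelihood adjusted p = 0.122). SLC1A5, a glutamine carrier, gave 1.04 ± 0.33 (SE, edgeR adjusted p = 0.131). SLC7A5, which pairs with SLC3A2 and carries tryptophan and kynurenine, gave 1.03 ± 0.35 (SE, edgeR adjusted p = 0.152). SLC36A4, a lysosomal amino acid carrier, gave -0.57 ± 0.21 (SE, edgeR adjusted p = 0.176) and was lower in 4 of 4 lines, and SLC7A11, the cystine and glutamate exchanger, gave 0.01 ± 0.32 (SE). SLC7A5 went from 2900 to 8292 counts in 549, from 619 to 2328 in A375, from 1480 to 2296 in A498 and from 797 to 840 in H1703. Its ratio was 3.12 in 549, 4.27 in A375 and 1.40 in A498, and 0.914 (0.8285 to 1.01) in H1703.

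Of 11 listed AHR partners all were tested and 1 was higher, RELB, a subunit of NF-kappaB known to pair with AHR (1.46 ± 0.22 SE, edgeR quasi-likelihood adjusted p = 0.0145), and the list median was -0.20. RELB was higher in all 4 lines, from 1.63-fold in H1703 to 3.58-fold in 549. RELA, another subunit of NF-kappaB, gave 0.91 (edgeR quasi-likelihood adjusted p = 0.059). Of 17 other listed AHR targets, which include AHRR from the partner list, 7 were tested and 1 was higher. It was STC2, a secreted glycoprotein (3.15 ± 0.42 SE, edgeR quasi-likelihood adjusted p = 0.00637), and the list median was -0.17. STC2 had 62 and 769 counts in 549 and 224 and 2059 in A498, and at most 7 counts in A375 and H1703, so its call rests on 549 and A498. Among the untested targets, chosen here after their values were seen, SERPINB2, a serine protease inhibitor, had 0 untreated and 214 treated counts in A375, at least 81.0-fold higher against 3 counts in that library. IL6, a cytokine gene, had 18 untreated and 734 treated counts in A498, a ratio of 36.7 (23.1 to 62.3), and at most 4 counts in the other lines. Of the IFN-gamma signalling genes taken as a reference, IRF1 (4.57), the kinase gene JAK2 (1.90) and the feedback inhibitor SOCS1 (3.94) were higher by the same test, as log2 fold changes. The kinase gene JAK1 (-0.17) and the receptor genes IFNGR1 (0.05) and IFNGR2 (0.03) did not pass. Over all genes tested, 1.59% were higher. SOCS1 had 0 to 12 untreated and 7 to 234 treated counts, so it passed the filter on low counts mainly through treated libraries.

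**Figure D5:**
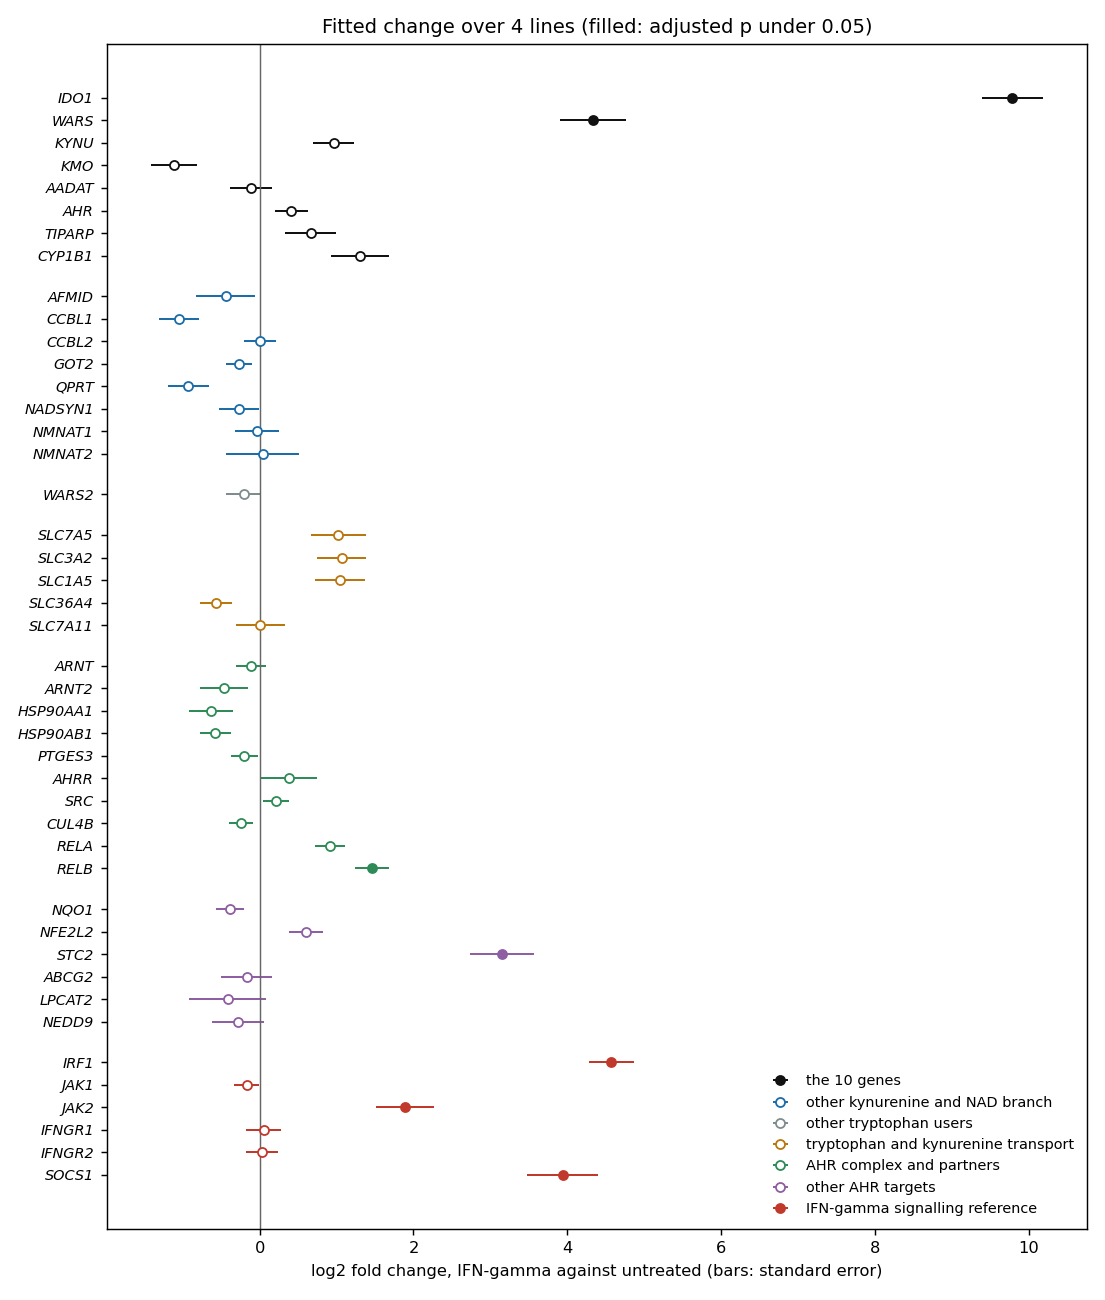
Fitted log2 fold change with IFN-gamma over 4 lines, with its standard error, for the tested members and for genes of the 6 lists reported here, filled where the adjusted p was under 0.05. IDO1, WARS, RELB, STC2, IRF1, JAK2 and SOCS1 are filled, and the transporters SLC7A5, SLC3A2 and SLC1A5 lie near 1 without passing.

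Genes whose log2 CPM followed each member most closely over the 8 libraries were found among 10646 genes (mean log2 CPM 3 or higher), as a description, since the libraries share lines and treatment. The closest to IDO1 were HLA-F (Pearson r = 0.974), UBE2L6 (0.968) and IFI35 (0.964), which all rose with IFN-gamma. For WARS they were CALCOCO2 (0.989), WDR25 (0.976), the gene that overlaps it, and CCDC59 (0.948). For KMO they were DGUOK (0.992) and OPN3 (0.988), the second being the overlapping gene, and SNAPC3 (0.985). For AHR they were TRIB1 (0.997), S100A13 (0.991) and ARAP3 (0.988), for KYNU CRAT, IDNK and S1PR3 (0.969 to 0.970), for AADAT TBX2, HEY1 and CEP350 (0.984 to 0.986), for TIPARP TAX1BP1, EPS15 and LMNA (0.960 to 0.970), and for CYP1B1 DDX52, TOB1 and ANKMY2 (0.969 to 0.977).

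Libraries held 6559933 to 9291154 counts, the most in untreated A375. Markers of each line's origin were checked. SOX10, of the melanocyte lineage, had 3952 and 4269 counts in A375 and at most 9 elsewhere, and the kidney factor PAX8 had 1552 and 2097 counts in A498 and at most 47 elsewhere. Other markers of these lists did not separate the lines as well. The pigment genes PMEL, MLANA and TYR had at most 28 counts in A375, and MITF had up to 370 counts outside it. CA9, of the kidney list, had 22 and 25 counts in A498 and 320 and 185 in 549. In 549 the epithelial keratins KRT7, KRT8 and KRT18 were abundant, but SFTPB, SFTPC and NKX2-1 had at most 2 counts, and in H1703 the lung epithelium list summed to 24 and 17 counts, with KRT5 at 0. The leukocyte genes CD3D, CD3E and MS4A1 were at 0 in all libraries, and the leukocyte list summed to at most 51 counts. Of the fibroblast list, THY1 had 1805 and 1586 counts in H1703, and COL1A2 had 433 and 445 in A375. The melanocyte factor MITF was at 389 CPM in untreated and 46.8 CPM in treated A375, and whether that bears on the A375 values of the AHR genes was not tested.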

How the data were processed

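RNA was sequenced from 4 cell lines in 2 arms, 1 library per line and arm, grouped by the sample labels. The submitters' processing notes name Bowtie2, edgeR and build hg19; versions, annotation, counting tool and strand use were not given in the sources used here. The labels name both a stranded poly(A) kit and a 3′ forward kit, so levels were not compared between genes. The authors deposited whole-number counts and log2 normalized values per gene, per the file headers; the log2 values, which behave as 1 factor per library at counts over 2000, served only for 1 alternative.

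Rows were summed by symbol (25737 rows to 24462 symbols, 0 per-sample columns unused). Genes were filtered by filterByExpr (minimum count 10, minimum total 15), scaled by TMM and tested by the quasi-likelihood test of edgeR 4.0.16 (R 4.3.3), with cell line as a term, Benjamini-Hochberg adjustment at 0.05 over all 13457 genes and 3 residual degrees of freedom (2 for interactions). The SE is the log2 fold change over the root of F. It is not the standard error of the 4 line ratios, whose log2 SD was 1.59 for IDO1 and 1.15 for WARS. Deviations from the arm means correlated at 0.847 to 0.903 within a line, so the line pairs the libraries; the pairing comes from the labels. The labels name no replicate cultures, so p-values rest on the spread between lines, with variances moderated across genes. The smallest two-sided p of a sign permutation over 4 lines is 0.125.

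Line ratios have exact 95% binomial intervals; log2 ratios use a prior count of 2. Members and lists were chosen with earlier results of these data known, and the rises of IDO1 and WARS were among them. All members were named, with any called gene and up to 3 with the smallest p of each list; some genes that this rule takes are not shown. Methods were tested on simulated data. Promoters came from RefSeq GRCh38.p14 and exon overlaps from GENCODE v29, both of another build than the counts, so they give names and letters only. Alternatives were other scalings and filters, DESeq2 1.42.0, limma-voom (limma 3.58.1), no cell line term, omission of each line, the likelihood ratio test, robust empirical Bayes, limma on the deposited log2 values, and other prior counts.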

Additional observations from a re-analysis of the deposited data

Results flagged for a closer look

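In groups of 4 libraries, the highest or lowest was compared with the spread of the others in 32 groups, of which chance would mark about 1 in 20. A total of 4 values stood apart, none with a replicate. The level of TDO2 in untreated A498 was 3.556 on the log2 CPM scale, with the next line at -1.302. KMO in untreated H1703 was at 2.253, with the next line at 6.208. AADAT in treated A375 was at 3.766, with the next line at 2.227. The total count of untreated A375 was 9291154, with the next untreated library at 7101076. CPM values are scaled to the counts of the genes kept by the filter times the TMM factor, not to this total.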

How the results depend on the processing

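The number of members called was 2, and it was 5 with no filter, 5 with DESeq2 and 5 with edgeR's likelihood ratio test, where KYNU, KMO and CYP1B1 were added. Without the replicate block (no cell line term), 0 members and 0 genes were called (543 genes at an unadjusted p under 0.05). The edgeR quasi-likelihood adjusted p of WARS was then 0.284. Of all genes, 258 were called, against 884 with no filter, 1036 with DESeq2 and 1319 with the likelihood ratio test. Leaving out each line gave 106 (without A498) to 455 (without H1703), with 153 without 549, and 2 members called each time. IDO1 was 1 of these 2 and could enter only by being higher with treatment, so the repeat is no check of its rise. The difference between lines was called for 1 member in A375 (CYP1B1) and 1 in H1703 (WARS) by DESeq2, against 0. Differences near 0 changed sign: CYP1B1 lung minus other, -0.35, was 0.21 with limma-voom, and 549 minus the others, -0.09, was 0.24; IDO1 in A375, -0.0024, was 0.016 with RLE factors, 0.15 with DESeq2, 0.68 with limma-voom and 0.038 with no filter; AHR in A498, 0.09, was -0.0049 with limma-voom. No member's log2 fold change over the lines reversed under any alternative run (109 values kept direction and side, 9 moved past the threshold and 2 fell short). The causes were not tested. With 1 library per line and arm and 1 untreated IDO1 count each, IDO1 ratios and everything under 20 counts are limited by depth.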
